A study of Mus musculus with 2 samples.

Results

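The genes described are 32 genes of glycolysis and of the response to low oxygen, chosen by symbol from the 31053 genes of a spatial transcriptome of healing mouse skull bone. They comprise 2 glucose transporters, 10 genes of upper glycolysis, 7 of lower glycolysis, 5 that set the fate of pyruvate and lactate, and 8 hypoxia-response genes. Col_nHA is a section of a calvarial (skull vault) bone defect repaired with a collagen/nHA material. Blank is a section of a defect left without it. Both were taken at day 7 and frozen in OCT, with 1 library per group, and the labels give no strain, genotype, age or sex of the mice. A spot is a small region of tissue that can hold several cells, and the labels' extraction text describes a droplet kit for single cells although the samples are described as fresh frozen spatial sections.

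Glycolysis splits glucose into pyruvate in the cytosol, and cells that lack oxygen or respond to inflammation turn pyruvate into lactate and export it. Many of its genes are targets of the hypoxia-inducible factors, which bind short ACGTG or GCGTG elements in DNA and are held down by oxygen-dependent prolyl hydroxylases. Several steps have a form that most tissues use and another that skeletal muscle uses, and a healing skull defect lies next to muscle, skin and brain coverings.

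The promoters of 4 genes that the results turn on are shown first, because the hypoxia element is short enough to be seen by eye. Each line is a window of 300 bases, from 250 before to 50 after the start site, read 5′ to 3′ on the strand of the gene from RefSeq (GRCm38.p6), with ACGTG or GCGTG on either strand in capitals, so that CACGT and CACGC mark the reverse strand.
Slc16a3 (lactate exporter), chr11:120948817-120949116, plus strand: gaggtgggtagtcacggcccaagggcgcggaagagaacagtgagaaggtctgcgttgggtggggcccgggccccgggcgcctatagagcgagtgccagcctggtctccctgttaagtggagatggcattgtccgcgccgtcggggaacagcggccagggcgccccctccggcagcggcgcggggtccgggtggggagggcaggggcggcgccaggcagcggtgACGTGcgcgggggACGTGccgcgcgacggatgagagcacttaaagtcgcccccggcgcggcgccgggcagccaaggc
Slc2a1 (glucose transporter), chr4:119108495-119108794, plus strand: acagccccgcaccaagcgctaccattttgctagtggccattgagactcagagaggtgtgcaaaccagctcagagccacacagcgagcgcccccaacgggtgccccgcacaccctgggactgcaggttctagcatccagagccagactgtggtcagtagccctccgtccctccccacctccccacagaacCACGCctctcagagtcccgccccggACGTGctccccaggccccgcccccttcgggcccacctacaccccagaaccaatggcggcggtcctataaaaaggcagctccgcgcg
Eno1 (general enolase), chr4:150236458-150236757, plus strand: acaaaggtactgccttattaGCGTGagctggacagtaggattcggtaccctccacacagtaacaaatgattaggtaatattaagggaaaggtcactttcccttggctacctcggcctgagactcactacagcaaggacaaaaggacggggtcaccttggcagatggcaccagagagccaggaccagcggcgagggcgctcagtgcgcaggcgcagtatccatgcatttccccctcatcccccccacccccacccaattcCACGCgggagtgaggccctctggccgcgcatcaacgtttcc
Ldhb (lactate dehydrogenase B), chr6:142507908-142508207, minus strand: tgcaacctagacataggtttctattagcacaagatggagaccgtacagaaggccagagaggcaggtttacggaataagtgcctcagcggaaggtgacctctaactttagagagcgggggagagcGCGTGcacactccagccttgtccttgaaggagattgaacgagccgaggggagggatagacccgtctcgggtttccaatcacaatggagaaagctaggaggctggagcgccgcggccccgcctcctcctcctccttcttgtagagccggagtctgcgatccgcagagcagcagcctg
Slc16a3, Slc2a1 and Eno1 each held 2 matches, and Ldhb held 1. Only genes with a match were shown, each by its window with the most matches, so a match in each was fixed by the choice. A palindromic CACGTG would count as 2 matches, 1 on each strand. Of the 30 genes with a window, 27 held a match in 1 or more windows (90%), against 46.7% of the 27025 genes of the RefSeq table. Counted by window, 35 of 43 windows of these genes and 14380 of 32851 windows in all held one (81.4% against 43.8%). Gpi1, Pgam2 and Tpi1 had no match in these windows, and Slc2a3 and Ndrg1 had no window in the table. These are matches of letters and say nothing about binding.

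Each section had 4992 barcodes, the same in both, with 45137685 unique molecular identifiers (UMIs, each standing for 1 captured transcript) in Col_nHA and 34868368 in Blank. Spots over tissue were barcodes with at least 4690 UMIs in Col_nHA and 3667 in Blank, which left 2471 and 2249 spots with a median of 13815 UMIs in Col_nHA and 9733 in Blank. Muscle-rich spots, where the muscle transcripts Ckm and Acta1 exceeded 0.5% of UMIs, numbered 284 in Col_nHA (11.5% of its tissue spots) and 297 in Blank (13.2%). They were not alike: the median muscle-rich spot had 5.42% of its UMIs in Ckm and Acta1 in Col_nHA and 0.973% in Blank, and 7 Col_nHA but 141 Blank tissue spots lay within 20% of the threshold. Mitochondrial transcripts made up 23.3% of UMIs in muscle-rich spots of Col_nHA and 5.57% in those of Blank. The choroid plexus list (6 genes including Ttr) summed to 20.6 CPM (counts scaled to 1000000 UMIs) outside muscle-rich spots in Col_nHA and to 13350.3 CPM in Blank.

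The 32 genes took a larger share of transcripts in Col_nHA than in Blank, at 0.882% against 0.513% of UMIs in all tissue spots and 0.677% against 0.443% without muscle-rich spots. Levels are CPM of the UMIs summed over spots, and a ratio is Col_nHA over Blank. With 1 library per group no test is possible, so each interval is an exact 95% interval that covers counting error only, and a ratio compares these 2 libraries. Of the 32 genes, 28 reached 10 CPM in 1 or both sections. Slc2a3, Aldoc, Car9 and Ankrd37 stayed below it in both sets of spots, and their values are given with their groups.

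In all tissue spots, 5 of the 28 were at least 2-fold higher in Col_nHA, against 1.83% of the 9855 genes at that level, and 0 were at least 2-fold lower, against 3.4% of all genes. The 5 were Slc2a1, Pgam2, Eno3, Slc16a3 and Egln3, and 24 of the 28 ratios lay above 1. Their median log2 ratio was 0.71, against 0.02 over all genes. Without muscle-rich spots, 2 were at least 2-fold higher (Slc2a1 and Slc16a3, against 1.75% of 9821 genes) and 1 was at least 2-fold lower (Ldhb, against 3.52%). There the median log2 ratio was 0.45, against 0.07 over all genes, and 22 of the 28 ratios lay above 1. Barcodes below the UMI minimum, which enter no comparison here, had 10 of 28 genes at least 2-fold higher, against 3.02% of 9683 genes, and 0 at least 2-fold lower, against 3.69%. In a spot, fewer cells of a type and less RNA per cell cannot be told apart.

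**Figure D1:**
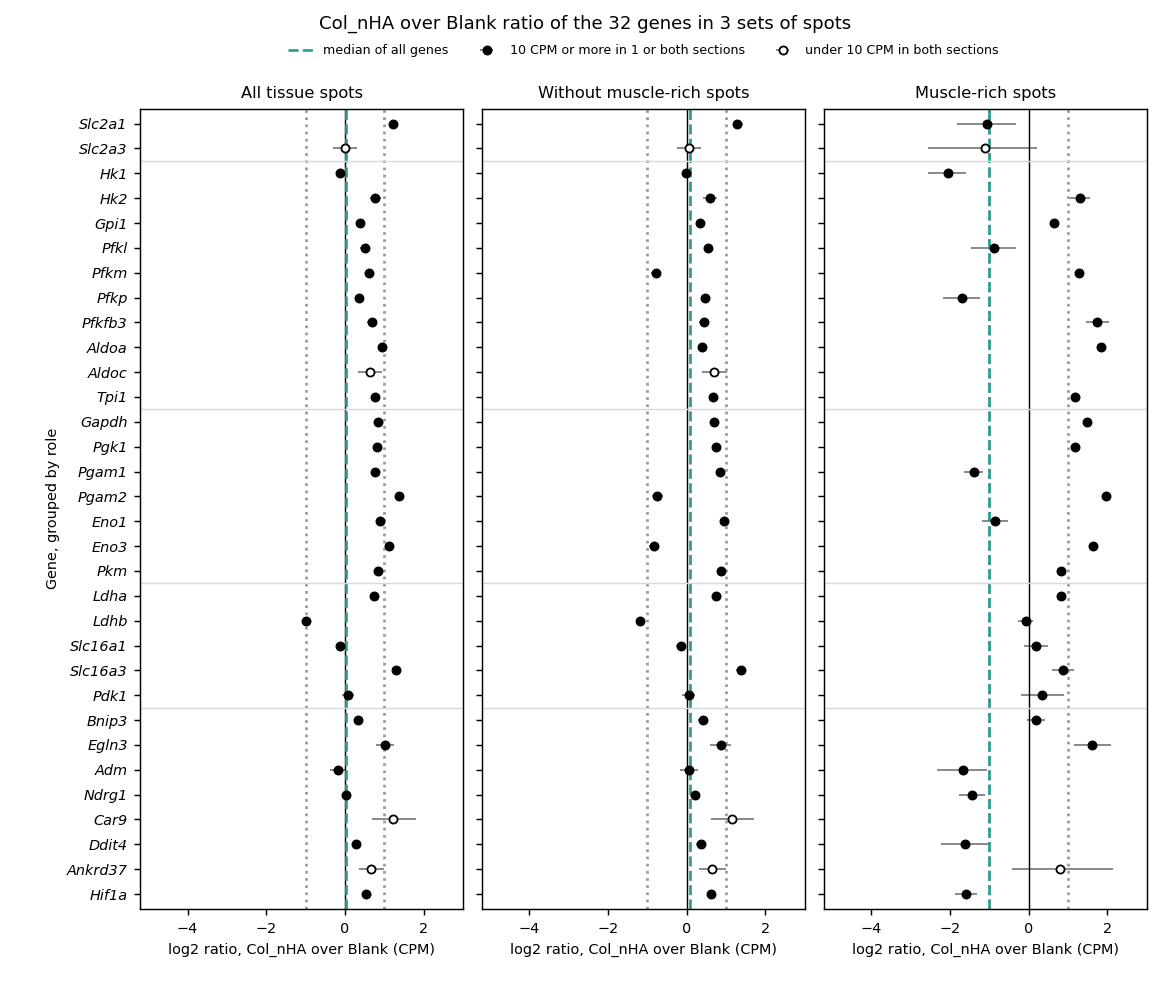
Log2 ratio of CPM, Col_nHA over Blank, for the 32 genes in all tissue spots, without muscle-rich spots and in muscle-rich spots, with exact 95% counting intervals. The dashed line is the median of all genes and the dotted lines mark 2-fold. Pfkm, Pgam2 and Eno3 lie right of 0 on the left and fall to its left once muscle-rich spots are taken out. In muscle-rich spots, Aldoc had 0 UMIs in Col_nHA and Car9 had 0 in Blank, and neither is drawn there.

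Glucose enters cells through the transporters that Slc2a1 and Slc2a3 encode. Slc2a1, the transporter that most tissues use, had 53.8 CPM in Col_nHA and 22.9 CPM in Blank in all tissue spots (ratio 2.35, 2.16 to 2.56). Without muscle-rich spots it had 58.9 CPM in Col_nHA and 24.1 CPM in Blank (ratio 2.45, 2.24 to 2.67). The difference was thus as large without muscle as with it. Slc2a3 was at 5.84 CPM in Col_nHA against 5.60 CPM in Blank without muscle-rich spots, with an interval of the ratio that includes 1 (0.843 to 1.29). Of the UMIs of these 2 transporters in the same spots, Slc2a1 held 91.0% in Col_nHA (89.8 to 92.1%) and 81.1% in Blank (78.3 to 83.8%).

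Upper glycolysis primes glucose with phosphate and splits it. Of its 9 genes at 10 CPM or more, 7 had ratios above 1 without muscle-rich spots, and none of the 9 reached 2-fold in either direction. Hexokinases catalyse the first step. Hk2, the form known to be inducible, had 21.9 CPM in Col_nHA and 14.6 CPM in Blank (ratio 1.497, 1.33 to 1.69), and Hk1, the constitutive form, had 54.4 CPM in Col_nHA and 55.4 CPM in Blank (0.983, 0.919 to 1.05). Of the UMIs of Hk1 and Hk2 together, Hk2 thus took 28.7% in Col_nHA and 20.9% in Blank. Hk3, given below, is not counted in these shares. Gpi1, the isomerase of the next step, had a ratio of 1.26 (1.22 to 1.30).

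The phosphofructokinase subunits catalyse the committed step, and they did not move together. Without muscle-rich spots, Pfkl, named for liver, had 53.1 CPM in Col_nHA and 36.4 CPM in Blank (ratio 1.46, 1.35 to 1.58). Pfkp, named for platelets, had 70.1 CPM in Col_nHA and 50.9 CPM in Blank (1.38, 1.29 to 1.47). Pfkm, the muscle subunit, had 26.5 CPM in Col_nHA and 45.5 CPM in Blank (0.582, 0.534 to 0.633), whereas in all tissue spots its ratio was 1.52 (1.45 to 1.58). Pfkfb3, whose product activates phosphofructokinase, had a ratio of 1.36 (1.24 to 1.49) without muscle-rich spots. Aldoa, the aldolase that muscle and most tissues use, had 1428 CPM in Col_nHA and 741 CPM in Blank in all tissue spots (1.93, 1.90 to 1.96), but 727 CPM in Col_nHA and 555 CPM in Blank without muscle-rich spots (1.31, 1.28 to 1.34). Aldoc, known from brain, was at 7.47 CPM in Col_nHA against 4.61 CPM in Blank (1.62, 1.30 to 2.01) and made up 1.02% of aldolase UMIs in Col_nHA and 0.824% in Blank. Tpi1, which interconverts the triose phosphates, had 408 CPM in Col_nHA and 257 CPM in Blank (1.58, 1.54 to 1.63).

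Lower glycolysis yields ATP and pyruvate. Its 5 generally expressed genes were all higher in Col_nHA without muscle-rich spots, by 1.61-fold to 1.92-fold. Its 2 muscle forms were both lower in the sum of these spots, though not in every range of muscle share, as given below. Gapdh, the dehydrogenase that opens this stage, had 1590.0 CPM in Col_nHA and 989.7 CPM in Blank (ratio 1.61, 1.58 to 1.63). Pgk1, which makes the first ATP, had 344 CPM in Col_nHA and 205 CPM in Blank (1.68, 1.63 to 1.73). Pkm, pyruvate kinase, had 947 CPM in Col_nHA and 522 CPM in Blank (1.82, 1.78 to 1.85). With spots split into 5 ranges of the Ckm and Acta1 share up to 0.5% of UMIs, these genes had ratios above 1 in each range, with Gapdh between 1.52 and 1.91 and Pkm between 1.43 and 1.84. Mouse Gapdh, Pgk1, Pkm and several others have near-identical processed copies elsewhere in the genome, and the sources used here do not say how reads shared between copies were counted.

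The mutase and enolase pairs show the split between muscle and general forms. Pgam1, the general phosphoglycerate mutase, had 427 CPM in Col_nHA and 239 CPM in Blank without muscle-rich spots (ratio 1.79, 1.74 to 1.84), while Pgam2, the muscle form, had 19.9 CPM in Col_nHA and 33.4 CPM in Blank (0.595, 0.539 to 0.656). Eno1, the general enolase whose promoter is shown above, had 258 CPM in Col_nHA and 135 CPM in Blank (1.92, 1.84 to 1.99). Eno3, the muscle enolase, had 27.2 CPM in Col_nHA and 48.8 CPM in Blank (0.558, 0.514 to 0.606). In all tissue spots both muscle forms had the opposite direction: Pgam2 was at 249 CPM in Col_nHA against 96.7 CPM in Blank (2.57, 2.47 to 2.68), and Eno3 was at 367 CPM in Col_nHA against 170.1 CPM in Blank (2.16, 2.09 to 2.23). The spots left after the 0.5% threshold still held 0.0260% of UMIs in Ckm and Acta1 in Col_nHA and 0.0638% in Blank, and the part of this remaining muscle RNA in the lower values was not tested. Over the 5 ranges of muscle share up to 0.5%, the Eno3 ratio lay between 0.669 and 1.28, above 1 in 2 ranges. The Pgam2 ratio lay between 0.713 and 1.19, also above 1 in 2 ranges. The ratios of the summed spots (0.558 and 0.595) were thus below those of every range. In the lowest range, at most 0.02% of UMIs in Ckm and Acta1, Eno3 had 19.2 CPM in Col_nHA and 15.7 CPM in Blank (1.23, 1.05 to 1.44). Pgam2 had 18.5 CPM in Col_nHA and 23.0 CPM in Blank there (0.806, 0.699 to 0.930).

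**Figure D2:**
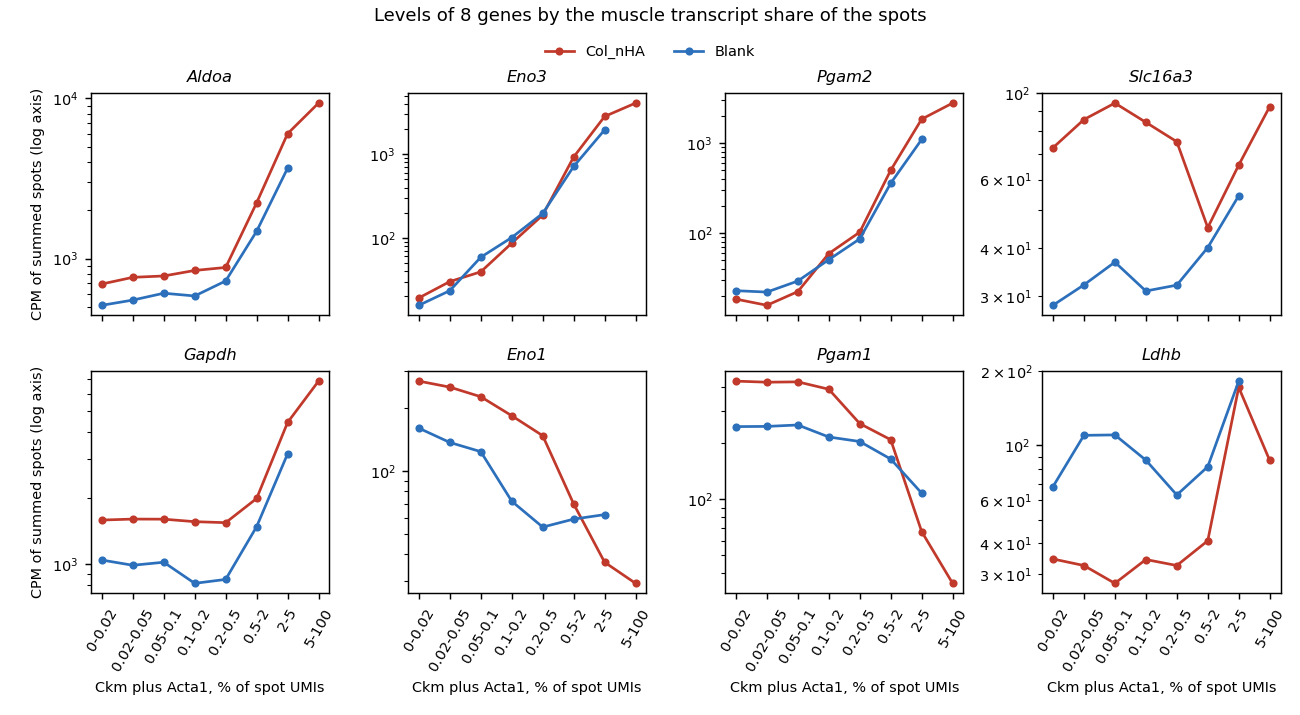
CPM of 8 genes (log axis) in spots grouped by the percent of their UMIs in Ckm and Acta1, in Col_nHA and Blank, with groups of fewer than 20 spots left out. Eno3 and Pgam2 climb with the muscle share in both sections. Their Col_nHA over Blank ratios lie on both sides of 1 in the ranges up to 0.5%. In the range of 2 to 5% they are 1.45 (1.37 to 1.53) for Eno3 and 1.68 (1.56 to 1.81) for Pgam2. Gapdh, Eno1, Pgam1 and Slc16a3 lie higher in Col_nHA in every range up to 0.5% and Ldhb lies lower.

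Pyruvate is turned into lactate, exported, or passed to mitochondria. Ldha, the dehydrogenase subunit that favours lactate, had 784 CPM in Col_nHA and 472 CPM in Blank without muscle-rich spots (ratio 1.66, 1.63 to 1.70). Slc16a3, the lactate exporter of strongly glycolytic cells, had 78.2 CPM in Col_nHA and 30.1 CPM in Blank, the largest of the 28 ratios (2.60, 2.40 to 2.81). Its ratio lay between 2.34 and 2.72 in the 5 ranges of muscle share. Slc16a1, the transporter that carries lactate into as well as out of cells, had 37.2 CPM in Col_nHA and 41.3 CPM in Blank (0.900, 0.831 to 0.975). Slc16a3 therefore made up 67.7% of the UMIs of this transporter pair in Col_nHA (66.3 to 69.2%) and 42.1% in Blank (39.9 to 44.4%). Pdk1, the kinase that closes the mitochondrial route, had 22.5 CPM in Col_nHA and 21.8 CPM in Blank, with an interval that includes 1 (0.927 to 1.15).

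Ldhb, the subunit of lactate dehydrogenase that favours pyruvate, was the only one of the 28 at least 2-fold lower in Col_nHA without muscle-rich spots. It had 33.5 CPM in Col_nHA and 76.8 CPM in Blank (ratio 0.436, 0.406 to 0.468), and 4.09% of lactate dehydrogenase UMIs in Col_nHA against 13.99% in Blank. Its Blank level followed the choroid plexus genes. In the 10% of Blank spots richest in that list it had 419 CPM, against 45.5 CPM in the other Blank spots, a ratio of 9.21 (8.45 to 10.0). With spots above 0.1% of UMIs in the choroid plexus list also left out, a threshold chosen after these values were seen, 2187 Col_nHA and 1166 Blank spots remained and the Ldhb ratio was 0.755. The same step left Slc16a3 at 2.54 and Slc2a1 at 2.71. In all tissue spots Ldhb lay just outside 2-fold, with 40.7 CPM in Col_nHA and 81.0 CPM in Blank (0.503, 0.473 to 0.536).

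The 6 hypoxia-response genes at 10 CPM or more had ratios between 1.05 and 1.82 without muscle-rich spots, with a median log2 ratio of 0.37. Hif1a, the oxygen-regulated subunit of the factor itself, had 261 CPM in Col_nHA and 171 CPM in Blank (ratio 1.52, 1.47 to 1.58). Its protein is set mainly by degradation, which transcript counts do not show. Egln3, a prolyl hydroxylase that is also a target of the factor, had 11.2 CPM in Col_nHA and 6.19 CPM in Blank (1.82, 1.51 to 2.19). With a muscle threshold of 0.1% in place of 0.5% its ratio was 2.50. In spots with at most 0.02% of UMIs in Ckm and Acta1 it had 9.58 CPM in Col_nHA and 3.496 CPM in Blank (2.74, 2.04 to 3.73). Over the 5 ranges of muscle share up to 0.5%, its ratio lay between 0.804 and 2.74, above 1 in 4 ranges. With spots rich in other tissues also left out, its ratio was 1.47. In all tissue spots Egln3 passed 2-fold, at 14.6 CPM in Col_nHA against 7.16 CPM in Blank (2.04, 1.74 to 2.39).

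The other hypoxia-response genes had smaller differences or few counts. Bnip3, which marks mitochondria for removal, had a ratio of 1.32 (1.22 to 1.43), and Ddit4, an inhibitor of growth signalling, one of 1.27 (1.18 to 1.37). Ndrg1, a stress-responsive gene, had 51.2 CPM in Col_nHA and 44.6 CPM in Blank (1.15, 1.07 to 1.23). Car9, a carbonic anhydrase at the cell surface, was at 3.09 CPM in Col_nHA against 1.39 CPM in Blank (2.22, 1.52 to 3.29) from 112 and 38 UMIs, below the level set for counting. Ankrd37, a known target of the factor, was at 6.34 CPM in Col_nHA against 4.03 CPM in Blank (1.57, 1.25 to 1.99), likewise below that level. Adm, which encodes a peptide that widens vessels, had 10.6 CPM in Col_nHA and 10.1 CPM in Blank (1.05, 0.895 to 1.23), and with a muscle threshold of 0.1% in place of 0.5% its ratio was 2.12.

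Muscle-rich spots had a composition of their own. In Col_nHA, 13 of the 28 genes were at least 2-fold higher in muscle-rich than in remaining spots, against 9.55% of all genes, and 8 were at least 2-fold lower, against 53.4%. In Blank, 11 were at least 2-fold higher, against 7.53% of all genes, and 1 (Eno1) was at least 2-fold lower, against 3.29%. Eno3 had 3532 CPM in muscle-rich and 27.2 CPM in remaining spots of Col_nHA, and 1144 CPM in muscle-rich and 48.8 CPM in remaining spots of Blank. Slc2a1 ran the other way, with 6.41 CPM in muscle-rich and 58.9 CPM in remaining spots of Col_nHA, and 13.2 CPM in muscle-rich and 24.1 CPM in remaining spots of Blank. Slc2a4, which encodes the insulin-responsive transporter of muscle and is no member of the 32, had 317 CPM in muscle-rich spots of Col_nHA and 75.3 CPM in those of Blank.

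The muscle forms Pgam2, Eno3 and Pfkm took larger shares of their sets in muscle-rich than in remaining spots of both sections. Pgam2 made up 97.7% of phosphoglycerate mutase UMIs in muscle-rich spots of Col_nHA and 4.45% in its remaining spots, and 80.5% in muscle-rich and 12.3% in remaining spots of Blank. Eno3 made up 99.1% of enolase UMIs in muscle-rich and 9.56% in remaining spots of Col_nHA, and 94.9% in muscle-rich and 26.6% in remaining spots of Blank. Pfkm ran likewise, at 98.2% in muscle-rich and 17.7% in remaining spots of Col_nHA, and 89.3% in muscle-rich and 34.3% in remaining spots of Blank. Hk2 made up 91.3% of the UMIs of Hk1 and Hk2 together in muscle-rich spots of Col_nHA but 50.7% in those of Blank. The share of Ldhb differed little by muscle, at 5.85% of lactate dehydrogenase UMIs in muscle-rich and 4.09% in remaining spots of Col_nHA. In Blank it was 10.4% in muscle-rich and 13.99% in remaining spots. Its level did differ, at 108 CPM in muscle-rich and 33.5 CPM in remaining spots of Col_nHA (3.24, 2.89 to 3.62). In Blank it had 114 CPM in muscle-rich and 76.8 CPM in remaining spots (1.49, 1.33 to 1.66). Aldoa held nearly all aldolase UMIs everywhere, and Aldoc had 0 of 31034 in muscle-rich spots of Col_nHA. A floor of 3 counts there is 0.00967%, and the exact 95% interval reaches 0.0119%.

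**Figure D3:**
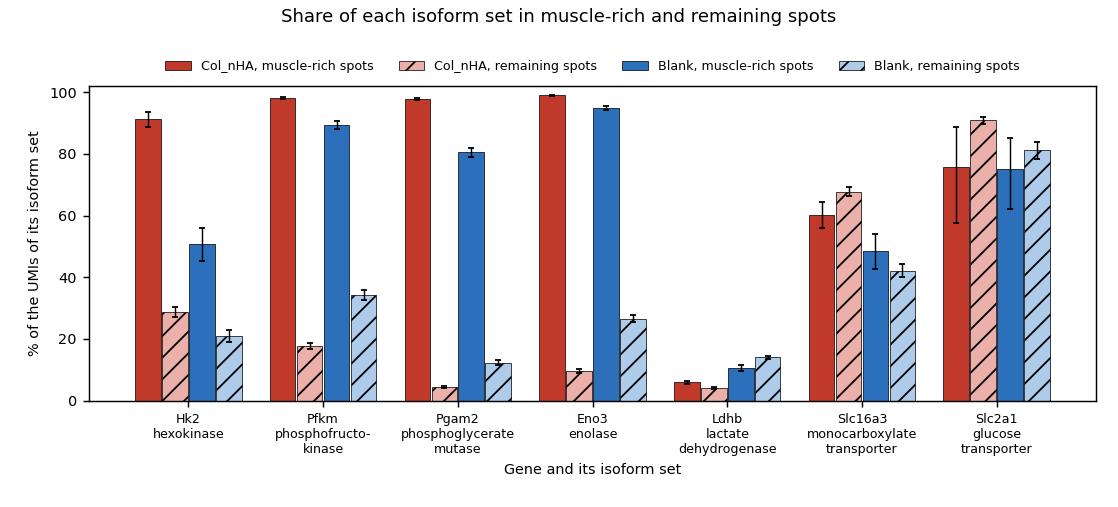
Percent of the UMIs of an isoform set held by 1 gene, in muscle-rich (solid) and remaining (hatched) spots of Col_nHA and Blank, with exact 95% intervals. Pfkm, Pgam2 and Eno3 exceed 80% in muscle-rich spots of both sections and stay below 35% in remaining spots. Slc16a3 and Ldhb differ between the sections in the remaining spots. The hexokinase set is Hk1 and Hk2 alone.

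Set against each other, muscle-rich spots of the sections differed in most genes, with 50.2% of 9881 genes at least 2-fold lower and 4% at least 2-fold higher in Col_nHA and a median log2 ratio over all genes of −1.01. Of the 28 genes, 10 were at least 2-fold higher and 8 at least 2-fold lower, with a median log2 ratio of 0.50. Aldoa had 7953 CPM in Col_nHA and 2232 CPM in Blank, Gapdh had 5845 CPM in Col_nHA and 2076 CPM in Blank, and Pgam2 had 2379 CPM in Col_nHA and 605 CPM in Blank. Pgam1, Hif1a and Hk1 were lower there, at 55.4, 38.2 and 12.0 CPM in Col_nHA against 146, 115 and 50.3 CPM in Blank. Counted per 1000 UMIs of Ckm and Acta1, a scale chosen after the values were seen, Eno3 stood at 66.0 in Col_nHA and 65.1 in Blank (ratio 1.01, 0.978 to 1.05) and Gapdh at 109 in Col_nHA and 118 in Blank (0.924, 0.900 to 0.949). On the same scale Pgam2 stood at 44.5 in Col_nHA and 34.4 in Blank (1.29, 1.23 to 1.35), Pkm at 27.4 in Col_nHA and 47.1 in Blank (0.583, 0.557 to 0.610), and Egln3 at 0.857 in Col_nHA and 0.854 in Blank (1.004, 0.732 to 1.40).

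Outside muscle, the 32 genes were not spread evenly over tissues. For 15 marker lists, the 10% of spots with the highest share of UMIs in a list were set against the other spots of the same section. Summed over the 32 genes, the level in spots rich in the wound epidermis list (keratins including Krt6a and Krt14) was 1.43 times that of other spots in Col_nHA and 1.04 times in Blank. It was 1.17 times that of other spots in Col_nHA and 1.31 times in Blank in spots rich in lipid-associated macrophage genes, and 0.783 times in Col_nHA and 0.689 times in Blank in osteoblast-rich spots. The highest value of the 15 lists in Blank was that of choroid-plexus-rich spots, at 1.44 times the level of other spots. In Col_nHA, where that list was nearly absent, it was 0.874 times. Spots are not replicates, so these are descriptions of each section.

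Egln3 had its highest ratio among the 15 lists for the wound epidermis list in both sections, and Slc2a1 had its highest there in Col_nHA. That list holds Krt5 and Krt14 beside Krt6a, Krt6b, Krt16 and Krt17. Outside muscle-rich spots, the Col_nHA over Blank ratios of its 6 genes ran from 0.810 to 59.95. Of the 6, 4 were at least 2-fold higher, against 1.75% of all genes. Spots rich in that list thus need not be the same tissue in both sections. In spots of Col_nHA rich in that list, Slc2a1 had 237 CPM, against 43.9 CPM in its other spots (ratio 5.41, 4.93 to 5.93), and in Blank it had 44.8 CPM against 22.7 CPM (1.98, 1.54 to 2.50). In Blank the ratio of Slc2a1 was higher in spots rich in choroid plexus genes (2.49, 2.03 to 3.04) and in cornified epidermis genes (2.28, 1.78 to 2.90). Egln3 had 58.1 CPM against 7.29 CPM in Col_nHA (7.97, 6.50 to 9.76) and 26.1 CPM against 4.82 CPM in Blank (5.42, 3.77 to 7.66). Slc16a3 was higher in these spots of Col_nHA, at 143 CPM against 72.7 CPM (1.97, 1.77 to 2.19), and lower in those of Blank, at 19.9 CPM against 30.8 CPM (0.644, 0.446 to 0.904). The wound epidermis list summed to 1854 CPM in Col_nHA and 959 CPM in Blank outside muscle-rich spots, and the cornified epidermis list to 243 CPM in Col_nHA and 1624 CPM in Blank. The median of these spots held 0.0235% of UMIs in Ckm and Acta1 in Col_nHA and 0.206% in Blank, and the part of that difference in the values was not tested. With spots above 0.1% of UMIs in both epidermis lists left out, a threshold chosen after the values were seen, the ratio of Slc2a1 was 1.91, that of Slc16a3 2.32 and that of Egln3 1.69, so Slc2a1 no longer reached 2-fold.

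Adm followed fibroblasts in both sections. In fibroblast-rich spots it had 45.1 CPM in Col_nHA, against 7.29 CPM in its other spots (ratio 6.19, 4.99 to 7.65), and 43.6 CPM in Blank, against 6.14 CPM in its other spots (7.11, 5.56 to 9.07). Between the sections, the fibroblast-rich spots had nearly the same Adm level (ratio 1.03). Macrophage-rich spots were low in Adm, with 0.292 times the level of other spots in Col_nHA. Ankrd37 was highest in spots rich in lipid-associated macrophage genes in Col_nHA, at 16.4 CPM against 4.95 CPM (3.31, 2.47 to 4.40). In Blank, the same kind of spots had Slc16a3 at 62.8 CPM against 26.0 CPM (2.41, 2.04 to 2.84) and Slc2a1 at 45.3 CPM against 21.5 CPM (2.11, 1.73 to 2.55). In osteoblast-rich spots, Slc2a1 had 26.8 CPM against 62.4 CPM in Col_nHA (0.430, 0.347 to 0.529) and 8.76 CPM against 25.6 CPM in Blank (0.343, 0.211 to 0.528). Of 8 lipid-associated macrophage genes, 4 were at least 2-fold higher in Col_nHA outside muscle-rich spots, against 1.75% of all genes, and of 8 fibroblast genes 3 were at least 2-fold lower, against 3.52%. Several other lists had larger shares of their measured genes past 2-fold. At least 2-fold higher, against 1.75% of all genes, were 6 of 7 osteoclast and 4 of 6 wound epidermis genes. At least 2-fold lower, against 3.52%, were 7 of 7 cornified epidermis, 6 of 6 choroid plexus and 5 of 5 erythroid genes. So were 3 of 4 adipose and 9 of 14 skeletal muscle genes. The 7 cell division genes had a median log2 ratio of 0.98. The part of these lists in the differences of the 32 genes between the sections was not tested.

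**Figure D4:**
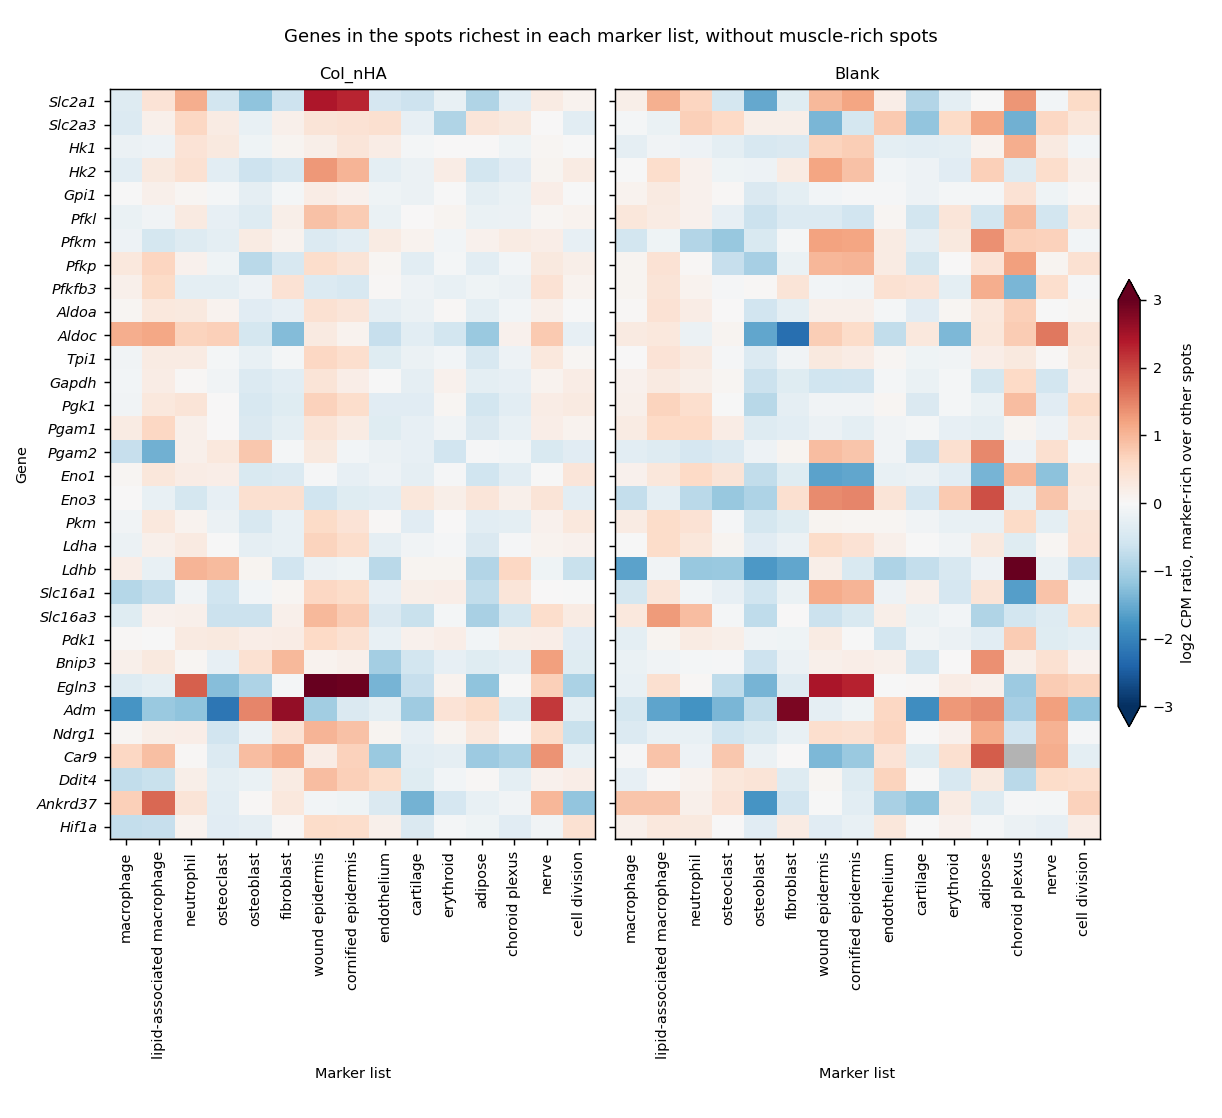
Log2 ratio of CPM in the 10% of spots richest in each marker list over the other spots, in Col_nHA (left) and Blank (right), without muscle-rich spots, with grey for a gene with 0 UMIs. Egln3 and Slc2a1 are high in epidermis-rich spots, Adm in fibroblast-rich spots of both sections and Ldhb in choroid-plexus-rich spots of Blank, a list that is nearly absent from Col_nHA.

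For 5 abundant enzymes, levels could be read spot by spot. Outside muscle-rich spots, the median spot had 1525 CPM of Gapdh in Col_nHA (10th to 90th percentile 829 to 2513) and 857 CPM in Blank (351 to 1589.7). Pkm had a median of 899 CPM in Col_nHA (421 to 1638) and 454 CPM in Blank (169 to 903), and Ldha one of 742 CPM in Col_nHA (389 to 1353) and 431 CPM in Blank (168 to 867). The median spot of Col_nHA lay above that of Blank for each of them, and the ranges overlapped. Aldoa had a median of 708 CPM in Col_nHA (356 to 1229) and 515 CPM in Blank (215 to 984).

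**Figure D5:**
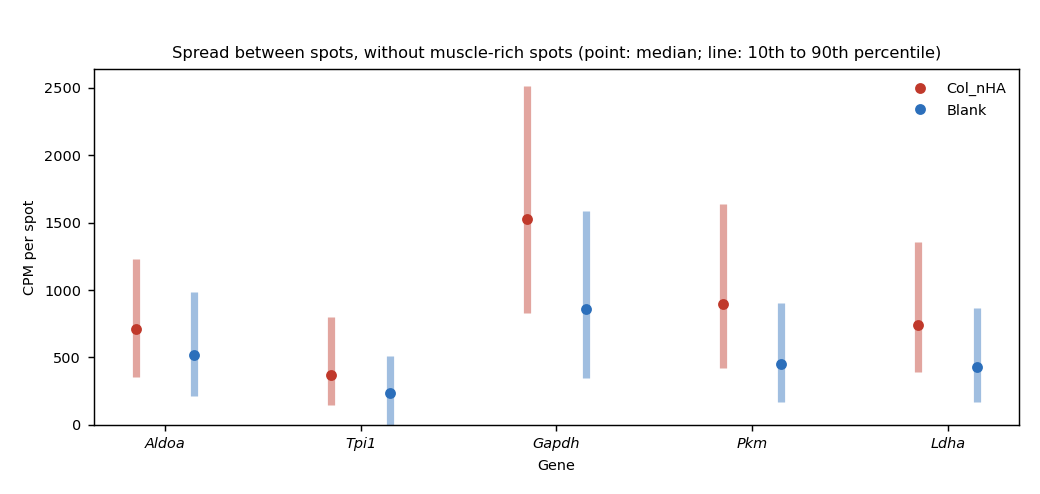
CPM per spot of 5 genes in Col_nHA and Blank without muscle-rich spots, with the median as a point and the 10th to 90th percentile as a line. The medians are higher in Col_nHA for all 5 and the ranges overlap. The figure sets the sections against each other within a gene, and heights of different genes were not compared.

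Few genes of the other pathway lists reached 2-fold without muscle-rich spots. Of 26 other targets and regulators of the factor at 10 CPM or more without muscle-rich spots, 0 were at least 2-fold higher and 0 lower, and the median log2 ratio was 0.33 with 19 above 1. Bhlhe40, a transcription factor, had 115 CPM in Col_nHA and 59.7 CPM in Blank (ratio 1.92, 1.81 to 2.04), Vegfa, which drives vessel growth, had 41.0 CPM in Col_nHA and 21.4 CPM in Blank (1.91, 1.74 to 2.11), and Loxl2, a collagen-crosslinking enzyme, had a ratio of 1.67. The lowest were Pdk2, a kinase of pyruvate dehydrogenase (0.614), Arnt, the constant partner of the factor (0.837), and Mxi1 (0.912). Of 22 other genes of glucose and pyruvate metabolism, 1 was at least 2-fold higher and 1 at least 2-fold lower, with a median log2 ratio of 0.05 without muscle-rich spots and 0.63 in them. Hk3, the hexokinase of myeloid cells, was higher, at 32.9 CPM in Col_nHA against 15.7 CPM in Blank (2.10, 1.87 to 2.35), with Pgd (1.29) and Gys1 (1.25) next to it. Gpd1, a glycerol phosphate dehydrogenase, was lower, at 3.09 CPM in Col_nHA against 16.3 CPM in Blank (0.190, 0.153 to 0.234), followed by Pygm, the glycogen phosphorylase of muscle (0.518), and Gbe1 (0.740).

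The 34 respiratory chain genes all had ratios above 1 in all tissue spots, with a median log2 ratio of 0.28 against 0.02 over all genes. Without muscle-rich spots their median log2 ratio was 0.02 against 0.07 over all genes, and 21 ratios lay above 1. There 0 were at least 2-fold higher, against 1.75% of all genes, and 1 (mt-Nd5, 0.487) was at least 2-fold lower, against 3.52%. Cycs, cytochrome c, had the highest ratio (1.40, 1.34 to 1.46), before Cox5a (1.25) and Atp5b (1.14), and mt-Nd2 (0.527) and mt-Nd4 (0.590) were the next lowest. In muscle-rich spots the same list had a median log2 ratio of 1.23, beside the 0.50 of the 28 genes and the −1.01 of all genes.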

How the data were processed

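Each section has 1 deposited matrix of whole-number UMI counts for every gene at every barcode, which the authors did not normalize. Space Ranger and genome build mm10 were used per the submitters' processing notes, and the matrix headers name Cell Ranger 4 per the file headers. The sources used here do not give the version of Space Ranger. All 31053 rows name a gene, 30934 of their IDs matched a gene name table, and 2 rows named Aldoa were summed (the second held 2 UMIs in Col_nHA and 0 in Blank).

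Counts were summed per section over spots above the UMI minimum and scaled to CPM of the summed UMIs. Genes with at least 10 CPM in 1 or both sections were counted at 2-fold. Intervals at the 95% level were conditional binomial for ratios and Clopper-Pearson for shares, in scipy 1.17.1 with Python 3.11.15, and were tested on simulated data. Intervals and floors of 3 counts cover counting error only. edgeR 4.0.16 gave TMM factors for 1 alternative and no test. Members past 2-fold, the 2 most abundant of each role, isoform sets, and the 3 highest and 3 lowest ratios of each other pathway list were named with values. The members and lists were chosen with earlier results of these data known. Alternatives covered the scaling, the CPM and UMI minimums, the muscle threshold and other tissues, and some were chosen after seeing the data.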

Additional observations from a re-analysis of the deposited data

Results flagged for a closer look

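Divided by the median ratio of all genes in the same spots, the Col_nHA over Blank ratios of 4 genes lay at least 1.5-fold below 1 outside and at least 1.5-fold above 1 inside muscle-rich spots. Other genes crossed 1 by less. Pgam2 stood at 0.566 without muscle-rich spots and at 7.9 in muscle-rich spots, Eno3 at 0.531 and 6.2, Pfkm at 0.554 and 4.87, and Ldhb at 0.415 and 1.9. Undivided, Ldhb was not higher in muscle-rich spots of Col_nHA, at 108 CPM against 114 CPM in Blank. Its 1.9 rests on the median ratio of all genes there, which was 0.498. The difference between the 2 sets of spots was not tested, since each holds 1 library per group. The share of UMIs in Ckm and Acta1 moved with the muscle forms, as given above, and its part was not tested.

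Barcodes below the UMI minimum enter no comparison above and still held signal of these genes. There 10 of the 28 genes at 10 CPM or more were at least 2-fold higher in Col_nHA, against 3.02% of 9683 genes. The ratios were 3.86 for Pgam2, 3.24 for Slc2a1, 3.23 for Eno3, 2.82 for Slc16a3, 2.41 for Eno1, 2.32 for Aldoa, 2.13 for Gapdh, 2.11 for Ldha, 2.07 for Pgk1 and 2.02 for Pfkl. Ckm had a ratio of 6.03 in the same barcodes.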

How the results depend on the processing

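No paired analysis was possible because each group has 1 library, and for the same reason no replicate could be left out. The 5 genes past 2-fold in all tissue spots kept their side of 1 there under every alternative run, as did Slc2a1, Slc16a3 and Ldhb without muscle-rich spots. In all tissue spots, the mean of per-spot CPM gave a median log2 ratio of 0.78 and 8 genes at least 2-fold higher, and median-of-ratios scaling gave 1 gene (Ldhb) at least 2-fold lower. Without muscle-rich spots, a 50 CPM minimum gave a median of 0.64, and a muscle threshold of 0.1% gave 0.57 with 4 genes higher. A muscle threshold of 2% gave 4 genes lower. Leaving out spots rich in other tissues gave 0 lower. Among alternatives chosen after seeing the data, leaving out choroid plexus spots gave 0 lower, leaving out epidermis spots gave 1 higher (Slc16a3), and a 0.02% muscle threshold gave 0 lower. Spots with 8000 to 16000 UMIs gave a median of 0.64, with 5 genes higher, 3 lower and Slc16a3 at 3.93. In muscle-rich spots, a 5% threshold gave a median of 0.23, with 2 Blank spots. With muscle-rich spots above 2% set against spots up to 0.1%, 5 genes were at least 2-fold lower in Blank. Outside muscle-rich spots 26 of 32 genes kept their side of 1 under every alternative, and Adm, Eno3 (0.333 at the 2% and 1.23 at the 0.02% muscle threshold), Hk1, Pdk1, Slc16a1 and Slc2a3 did not. Of the values of single genes and marker lists under alternatives, 555 moved little and 209 moved beyond counting error or the spread set for them.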
